A study of Mus musculus with 4 samples.

Results

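The genes described here are 9 components of the Nodal and BMP signalling pathways of mouse embryonic stem (ES) cells: the ligands Nodal and Bmp4, the Nodal antagonists Lefty1 and Lefty2, the coreceptor Tdgf1, the inhibitory Smad7, and the targets Id1, Id2 and Id3. They were chosen by name, with earlier results of these data known, out of 24054 genes in the count tables. All 9 were among the 13267 genes with enough reads to be tested. RNA-seq libraries from 3 rescue clones and 1 wild-type line were compared. The wild-type library, labelled wt26p46, came from the wt26 ES cell line, whose Morc3 gene was not edited. The rescue clones T131-3C, T131-3D and T131-3M (3C, 3D and 3M below, in this order wherever 3 values are given for the clones) carried a Morc3 knockout together with a wild-type Morc3 cDNA brought in by PiggyBac transfection and puromycin selection. Each rescue line was a single clone, and all of them descended from KO27-2, itself a single knockout clone made from wt26 with CRISPR-Cas9. All lines were grown without feeder cells on gelatin in serum and LIF, so the comparison asked how far cells with Morc3 put back differed from the parental wild type. The knockout line itself was not analysed here.

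Nodal is a secreted ligand of the TGF-beta family that signals through activin receptors and the coreceptor encoded by Tdgf1 (Cripto), after which Smad2 and Smad3 are phosphorylated and enter the nucleus with Smad4. Lefty1 and Lefty2 are secreted inhibitors of Nodal and are themselves Nodal targets, which makes them a feedback loop and a common readout of the pathway in ES cells. Bmp4 signals through its own receptors to Smad1 and Smad5, and its classic targets are the Id genes, which encode helix-loop-helix proteins without a DNA-binding region that keep differentiation factors inactive. Smad7 is induced by both branches and blocks their receptors. In serum and LIF, Id gene expression downstream of BMP is known to help hold ES cells undifferentiated.

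Read pairs assigned to genes numbered 18789457 in the wild type and 13620914, 14662197 and 15479190 in the clones. Levels are given as counts per 1000000 counts of the library (CPM) after TMM scaling, so that 1 CPM stood for 19.1 counts in the wild type and 13.5 to 15.5 in the clones. The wild-type library also had fewer unmapped pairs, 14.5% against 21.0% to 23.0% in the clones, and this property cannot be told apart from the group. Morc3 itself was counted at 161 CPM in the wild type and at 655, 497 and 609 CPM in the clones, where reads of the transgene and of the edited gene are counted together (log2 fold change 1.87 ± 0.17 SE, edgeR adjusted p = 0.11). The ES cell markers Pou5f1, Sox2, Nanog, Esrrb, Zfp42, Klf4, Utf1 and Dppa5a summed to 3820 CPM in the wild type and to 3879 to 3973 CPM in the clones. Over 6 or 7 markers each, primitive streak summed to 4.08 to 9.96 CPM, primitive endoderm to 7.08 to 11.4 CPM and trophoblast to 2.23 to 5.68 CPM over all libraries. Fibroblast markers summed to 20.4 to 44.95 CPM, mostly Thy1, with Col3a1 and Dcn at 0, and neuroectoderm markers to 93.7 to 128 CPM, mostly Tubb3 and Nes. Tubb3 was at 73.8 CPM in the wild type and lower in every clone, at 49.3, 40.8 and 40.5 CPM (log2 fold change -0.76, edgeR adjusted p = 0.19), and Nes was at 38.4 CPM against 60.3, 35.6 and 48.2 CPM (0.32, adjusted p = 0.72). Their part in the results that follow was not tested. Genes on chromosome 14 were shifted upward as a group in all 3 clones, by a median of 0.34 to 0.35 on the log2 scale, and genes on chromosome 13 by 0.48 in clones 3C and 3M but 0.03 in clone 3D. Bmp4 is on the first of these chromosomes and no other gene of the 9 is on either. With 1 wild-type library, the spread in every test came from the clones, and the wild type was assumed to vary as they did.

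The promoters of Id2, Id3 and Bmp4 are shown because these were the 3 genes with the largest fitted differences from the wild type. RefSeq promoter sequences on GRCm38.p6 were matched for 5 of the 9 genes, Nodal, Tdgf1, Bmp4, Id2 and Id3. The 250 bases before each start site run along the gene's own strand, and capitals mark the letters GTCT on either strand, the short Smad-binding element, and GGCGCC, the GC-rich element bound by Smads of the BMP branch. Id2 lies at chr12:25093799-25096092 and Id3 at chr4:136143822-136145392. The bases shown are chr12:25096093-25096342 on the minus strand for Id2, chr4:136143572-136143821 on the plus strand for Id3 and chr14:46390670-46390919 on the minus strand for Bmp4.
Id2: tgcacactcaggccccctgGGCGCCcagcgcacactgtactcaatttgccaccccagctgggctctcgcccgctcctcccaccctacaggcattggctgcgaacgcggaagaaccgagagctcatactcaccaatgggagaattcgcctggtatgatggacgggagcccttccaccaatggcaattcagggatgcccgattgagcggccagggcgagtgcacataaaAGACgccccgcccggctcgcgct
Id3: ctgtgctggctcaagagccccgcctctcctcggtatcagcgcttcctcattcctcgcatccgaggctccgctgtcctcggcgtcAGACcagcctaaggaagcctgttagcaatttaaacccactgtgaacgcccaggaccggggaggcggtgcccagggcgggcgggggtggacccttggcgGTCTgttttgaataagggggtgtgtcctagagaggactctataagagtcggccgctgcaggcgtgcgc
Bmp4: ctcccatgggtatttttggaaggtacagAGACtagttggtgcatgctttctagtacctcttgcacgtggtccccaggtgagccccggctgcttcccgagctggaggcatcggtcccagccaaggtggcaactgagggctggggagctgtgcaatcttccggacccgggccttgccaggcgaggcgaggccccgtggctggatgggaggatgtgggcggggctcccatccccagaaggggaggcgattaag

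Of the promoters printed, that of Id2 held GGCGCC, once, with its first base 231 bases before the start. The same 6 letters were found in 11.9% of the 32851 promoter windows of 300 bases, 250 before and 50 after the start, and in none of the windows of Nodal, Tdgf1, Bmp4 and Id3. GTCT was present in 88.0% of all windows, so its presence in all 5 (2 matches in Nodal, 3 in Tdgf1, 2 in Bmp4, 1 in Id2 and 3 in Id3) set them apart from few others. The palindrome GTCTAGAC, found in 0.213% of windows, was in none of the 5. The Id2 window also held 3 copies of CCAAT, which 37.4% of windows contained at least once. These matches describe the letters only.

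None of the 9 genes passed the threshold of an adjusted p of 0.01 in the quasi-likelihood test of edgeR, adjusted by Benjamini-Hochberg over all 13267 genes, of which 1 (0.00754%) did. At an unadjusted p under 0.05, 1 of the 9, Id2, was called, against 10.3% of all genes. The same gene was the only one of the 9 with a log2 fold change of 1 or more in size, as 3.77% of all genes had. DESeq2 at the same adjusted threshold called 65 genes, 0.49%, and none of the 9. Fitted log2 fold changes were positive for 8 of the 9 genes, with Smad7 the exception, and between -0.02 and 1.13. In 5 of the 9, Nodal, Tdgf1, Bmp4, Id2 and Id3, all 3 clones lay above the wild type, where 28.7% of all genes had the clones on that side. In none did all 3 clones lie below it, where 28.4% of all genes did. The median log2 fold change over all genes was 0.01, with quartiles of -0.14 and 0.16.

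**Figure D1:**
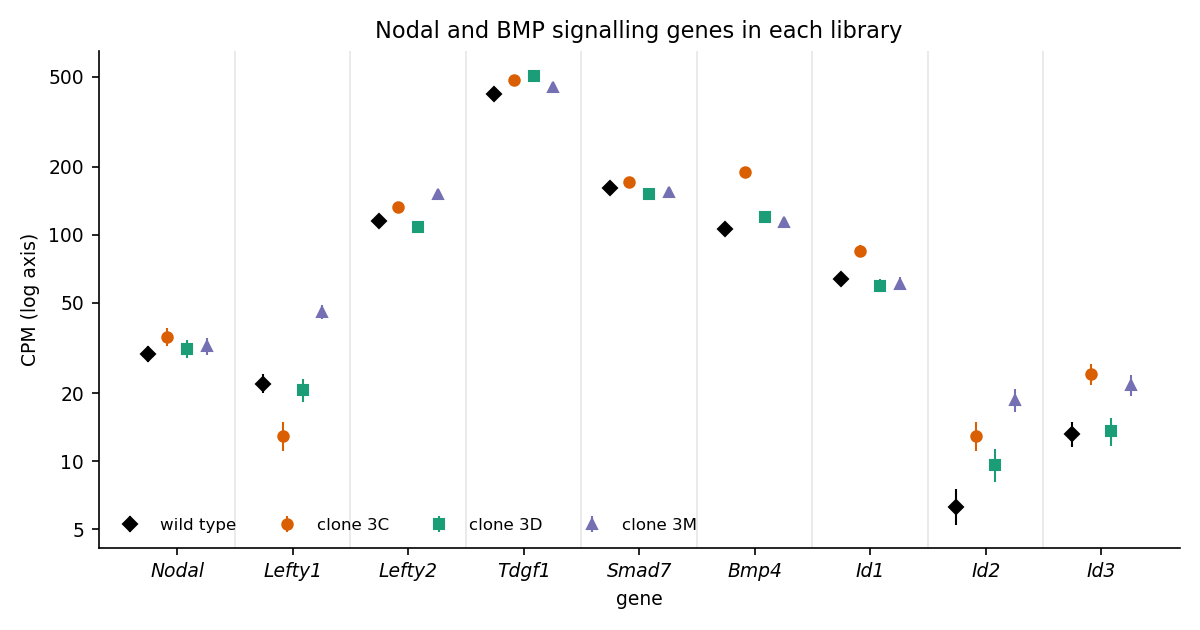
Each point is the CPM (log axis) of 1 gene in 1 library, with the 95% exact Poisson interval of its count as a vertical bar, which is shorter than the symbol for the higher genes. Tdgf1 was highest, at 420 to 505 CPM, Id2 was lowest, at 6.29 to 18.7 CPM, and Lefty1 spread the widest, with clone 3C at 12.9 and clone 3M at 45.6 CPM.

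The ligand Nodal (chr10:61417972-61425338, plus strand) was one of the steadiest genes of the group. It was counted 567 times in the wild type, 29.7 CPM, and at 35.5, 31.4 and 32.2 CPM in the clones. All 3 clones were thus slightly above the wild type, with a mean of 33.0 ± 2.14 CPM (SD, n = 3 clones). Its log2 fold change was 0.15, with a standard error of 0.12 and a 95% interval from -0.14 to 0.44 (edgeR adjusted p = 0.69), and it was 0.10 without clone 3C. In these bulk libraries, here and for the genes that follow, fewer cells expressing a gene and less RNA per cell cannot be told apart.

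Tdgf1 (chr9:110939608-110946158, minus strand), the coreceptor that Nodal needs and a gene highly expressed in ES cells, was the most abundant of the 9. Its level was 419.7 CPM in the wild type and 481, 505 and 449 CPM in the clones. Every clone was above the wild type, and their mean was 478 ± 28.1 CPM. A log2 fold change of 0.19 had a 95% interval from -0.01 to 0.39 and an adjusted p of 0.51 (edgeR). Of the 50-base windows of its longest transcript, 12.5% were also found in the pseudogene Tdgf1-ps1, so reads from there may not have been placed in 1 gene.

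The antagonist Lefty1 (chr1:180935022-180938401, plus strand) had the largest spread of the 9 between the rescue clones. It was counted 420 times in the wild type and 174, 300 and 707 times in the clones, or 22.0 CPM against 12.9, 20.6 and 45.6 CPM. Clone 3C was below the wild type, clone 3D close to it and clone 3M above it, so the groups overlapped. The highest clone had 3.54 times the level of the lowest, and the exact Poisson intervals of the counts did not overlap between any of the 3 clones (11.1 to 15.0, 18.3 to 23.1 and 42.3 to 49.1 CPM). Such intervals cover counting error only. The SD of log2 CPM between clones was 0.92, a value reached by 0.145% of the 4152 tested genes whose clone mean was within 2-fold of that of Lefty1. Its fitted log2 fold change, 0.27, had an interval from -1.31 to 1.85 (edgeR adjusted p = 0.91), and without clone 3M it was -0.39.

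Lefty2 (chr1:180893108-180899107, plus strand) is the neighbour of Lefty1 and its close paralogue. It was the more abundant of the pair, at 114.6 CPM in the wild type and 132, 108 and 151 CPM in the clones. Clones 3C and 3M were above the wild type and clone 3D below it. Fitted over all clones, the log2 fold change was 0.19, with an interval from -0.26 to 0.63 (edgeR adjusted p = 0.75), and it was 0.31 without clone 3D and 0.07 without clone 3M. The SD of log2 CPM between clones was 0.24, against 0.92 for Lefty1, and the pair shared their highest clone, 3M, but not their lowest. Lefty1 stood at 0.192 counts per count of Lefty2 in the wild type, and at 0.0975, 0.190 and 0.302 in the clones. This ratio spanned a wider range between the clones than between the wild type and any 1 of them. Of the 50-base windows of the longest Lefty1 transcript, 17.9% also occurred in Lefty2, and 11.6% of those of Lefty2 occurred in Lefty1 or Gm44212, so both levels are uncertain by the reads that fell there.

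Smad7 (chr18:75367365-75395935, plus strand), the inhibitory Smad shared by both branches, stayed near the wild-type level in every clone. Its level was 162 CPM in the wild type and 171, 151 and 155 CPM in the clones. Clone 3C was above and the other two were below. A log2 fold change of -0.02 had a standard error of 0.09 and the narrow interval from -0.25 to 0.20 (edgeR adjusted p = 0.95).

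Bmp4 (chr14:46383525-46390669, minus strand), the BMP ligand made by ES cells themselves, was above the wild type in all clones but chiefly in 1 of them. It was counted at 106 CPM in the wild type and at 189, 119 and 113 CPM in the clones. Clone 3C stood apart from the other two, which were close to the wild type. For Bmp4 the log2 fold change was 0.40, with a standard error of 0.30 and an interval from -0.34 to 1.14 (edgeR adjusted p = 0.67), and without clone 3C it was 0.13. The SD of log2 CPM between clones, 0.40, was reached by 1.48% of genes of similar level.

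The fitted difference of Bmp4 was close to the shift of its chromosome. The other 463 tested genes of the chromosome had a median log2 fold change of 0.35, which left 0.05 for Bmp4 after subtraction, or -0.22 without clone 3C. By clone, Bmp4 differed from the wild type by 0.83 in clone 3C, 0.17 in clone 3D and 0.09 in clone 3M (log2 CPM), while the chromosome's median difference was 0.34, 0.34 and 0.35. Relative to its chromosome, Bmp4 was thus high in clone 3C and low in the other two. The part of the chromosome's shift in the Bmp4 result was not tested. Gm15217 and Gm15222 overlap Bmp4 on the other strand, where the Bmp4 counts were 0 in the wild type and 5, 0 and 1 in the clones.

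**Figure D2:**
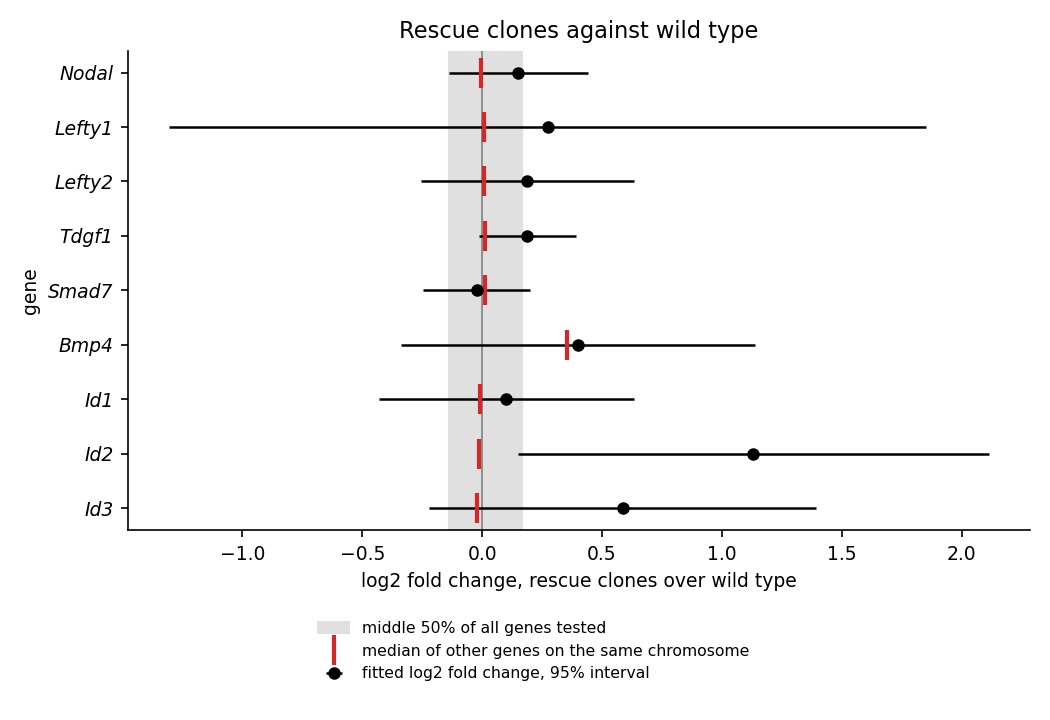
Fitted log2 fold changes of the rescue clones over the wild type (points) with 95% intervals (lines), the quartile range of all tested genes (grey band, -0.14 to 0.16) and the median of the other genes on the same chromosome (red ticks). The interval of Id2, 0.15 to 2.11, is the only one that excludes 0, and the chromosome tick of Bmp4, at 0.35, lies next to its point.

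Among the targets of BMP signalling, Id1 (chr2:152736251-152737410, plus strand) was the most abundant and did not stand apart from the wild type. It was at 63.8 CPM in the wild type and at 85.0, 59.7 and 60.9 CPM in the clones. Only clone 3C, the clone with the highest Bmp4, was above the wild type. Id3 was also highest in clone 3C, but Id2 was highest in clone 3M, and a link to Bmp4 was not tested. For Id1 the log2 fold change was 0.10, with an interval from -0.43 to 0.63 (edgeR adjusted p = 0.90), and -0.08 without clone 3C.

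Id2, a target that is also active in many differentiated lineages, was low in these cells and showed the largest difference of the 9 genes. It was counted 120 times in the wild type and 174, 140 and 289 times in the clones, which gave 6.29 CPM against 12.9, 9.62 and 18.7 CPM. All clones were above the wild type, and the counting interval of the wild type, 5.22 to 7.52 CPM, ended below that of the nearest clone, 8.09 to 11.4 CPM in 3D. The mean of the clones, 13.7 ± 4.57 CPM, was 2.18 times the wild type. The log2 fold change of 1.13 had a standard error of 0.40 and an interval from 0.15 to 2.11, and failed the correction over all genes (edgeR, unadjusted p = 0.031, adjusted p = 0.44).

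Id3 had a smaller difference that rested on 2 of the clones. It was at 13.2 CPM in the wild type and at 24.2, 13.5 and 21.6 CPM in the clones. Clones 3C and 3M were well above the wild type, and clone 3D exceeded it by less than the counting intervals (11.6 to 14.9 CPM in the wild type, 11.7 to 15.6 CPM in 3D). The log2 fold change was 0.59, with a standard error of 0.32 and an interval from -0.22 to 1.39 (edgeR adjusted p = 0.58).

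The calls for Id2 and Id3 depended on clone 3D, which had the lowest level of both among the clones. Without it, 420 of 13243 genes (3.17%) passed the adjusted threshold in edgeR, and Id2 and Id3 were among them. The log2 fold change of Id2 was then 1.33 (adjusted p = 0.0051) and that of Id3 was 0.80 (adjusted p = 0.0096). Without clone 3C or clone 3M, neither passed, and the log2 fold change ranged from 0.84 to 1.17 for Id2 and from 0.42 to 0.51 for Id3. In DESeq2 with all clones, the adjusted p was 0.23 for Id2 and 0.91 for Id3.

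Within the Id family, Id1 held a smaller share in each clone than in the wild type. Id1, Id2, Id3 and Id4 together came to 85.7 CPM in the wild type and to 130.4, 88.0 and 112 CPM in the clones. Id1 held 74.4% of that sum in the wild type and 65.2%, 67.8% and 54.5% in the clones. Per count of Id1 there were 0.0986 counts of Id2 in the wild type and 0.152, 0.161 and 0.306 in the clones. These ratios were read within a library and so did not depend on its depth, and they were not tested.

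**Figure D3:**
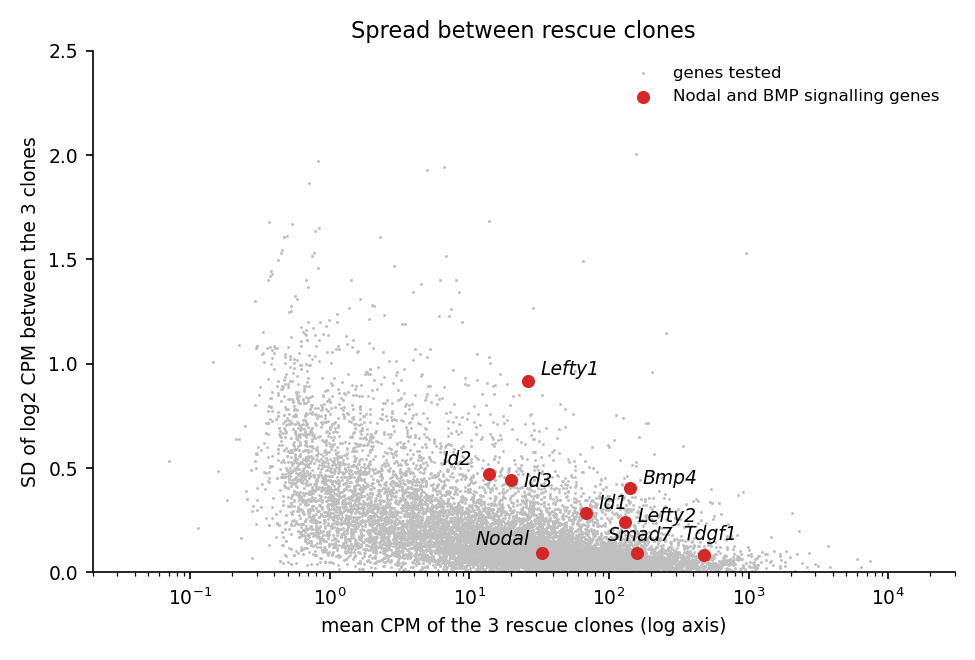
The SD of log2 CPM between the 3 rescue clones is plotted against their mean CPM (log axis) for every tested gene (grey) and for the Nodal and BMP signalling genes (red). Lefty1, at 0.92, lies far above the mass of genes of its level, Bmp4, Id3 and Id2 lie between 0.40 and 0.47, and Nodal, Smad7 and Tdgf1 lie at 0.09.

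The 9 genes differed in how much they varied between clones. Within 2-fold of the gene's own level, an SD as large was seen for 0.145% of genes for Lefty1, 1.48% for Bmp4, 3.59% for Id3, 3.98% for Id2, 5.86% for Id1 and 7.60% for Lefty2. The corresponding share was 25.5% for Tdgf1, 30.5% for Smad7 and 53.5% for Nodal. Lefty1, Bmp4, Id3, Id2, Id1 and Lefty2 thus had the smaller shares, and Tdgf1, Smad7 and Nodal the larger ones. These shares describe the 9 genes only, not secreted antagonists or BMP targets as classes.

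Divided by exon length, the genes ranked in the wild type from Tdgf1 at 160 CPM per kb through Id1 at 55.0, Bmp4 at 47.3, Lefty2 at 43.9, Smad7 at 35.8, Nodal at 14.2, Lefty1 at 12.5 and Id3 at 7.35 to Id2 at 2.58. Tdgf1 lay above 98.7% of tested genes on this scale and Id2 above 36.3%. In the clones the order was the same except that Bmp4, at 62.5 ± 18.6 CPM per kb, came before Id1, at 59.1 ± 12.3. Bmp4, Id1 and Lefty2 at 49.99 ± 8.18 did not differ beyond their spread, nor did Nodal (15.8 ± 1.02) and Lefty1 (15.0 ± 9.73).

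No gene of the Nodal and activin pathway passed the adjusted threshold with all clones in the fit. Of 37 genes listed for it, the members included, 28 were tested and none was called, with 3 higher and 0 lower at an unadjusted p under 0.05 (edgeR), where 10.3% of all tested genes were called in either direction. The median log2 fold change was 0.08, against 0.01 for all genes, and all 3 clones lay above the wild type for 6 of the 28 and below it for 8, against 28.7% and 28.4% of all genes. These shares are near those of all genes. Among the other ligands was Inhbb, an activin subunit gene. Inhbb was at 155 CPM in the wild type and at 214, 212 and 197 CPM in the clones, or a log2 fold change of 0.42 ± 0.08 (SE, edgeR adjusted p = 0.21). With a clone left out, the edgeR adjusted p was 0.0088 without 3D, where 3.17% of all genes passed, but 0.22 without 3C and 0.72 without 3M. Gdf3, a Nodal-related ligand of pluripotent cells, was at 49.5 CPM and at 63.1, 66.5 and 62.4 CPM, or a log2 fold change of 0.37 ± 0.09 (SE, edgeR adjusted p = 0.29). Both were higher in every clone by amounts that varied little between clones.

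Of the 3 tested targets of Nodal outside the 9 genes, Otx2 and Eomes differed between the clones on both sides of the wild type, in an order other than that of Lefty1. Otx2, a factor of the epiblast and of forebrain, was counted 124 times in the wild type and 23, 214 and 64 times in the clones. Eomes, a factor of primitive streak, was counted 51 times in the wild type and 27, 114 and 61 times in the clones. Clone 3D was highest and clone 3C lowest for both, whereas Lefty1 was highest in clone 3M. Otx2 is also on chromosome 14, and neither gene passed the test (edgeR adjusted p = 0.99 and 0.73). The remaining one, Mixl1, a homeobox gene of primitive streak, was below the wild type in every clone, with 38 counts against 20, 19 and 22 (log2 fold change -0.50, edgeR adjusted p = 0.62). Gdf1, Inhba, Cer1 and Acvr1c were at 0 counts in all 4 libraries.

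The BMP pathway held the larger single differences. Of 43 genes listed, the members included, 31 were tested and none was called, with 8 higher and 1 lower at an unadjusted p under 0.05 (edgeR), against 10.3% of all tested genes in either direction. The median log2 fold change was 0.10, and all 3 clones lay above the wild type for 13 of the 31 and below it for 9, against 28.7% and 28.4% of all genes. Of the 10 targets listed, 8 were tested, and Msx1 and Msx2 had too few reads. Among the 8, 5 were higher at that level, and all 3 clones were above the wild type for 6. All 3 clones were below it for 1, Hey1, with 42 counts in the wild type and 14, 23 and 31 in the clones (log2 fold change -0.50, edgeR adjusted p = 0.70). Dusp9, a phosphatase gene of the list, also passed the adjusted threshold without clone 3D alone (edgeR adjusted p = 0.0060), where 3.17% of all genes passed. Acvr2a, Acvr2b, Fst, Ski, Smad4 and Smad7 were on both the Nodal and activin list and the BMP list. Fst was among the higher genes of each, so the counts of the lists are not independent. The lists were drawn up with results of these libraries known, so these counts only describe them.

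Smad6, the inhibitory Smad of the BMP branch and itself a BMP target, had the largest difference of the tested genes on the list. It was counted 18 times in the wild type and 53, 54 and 91 times in the clones, or 0.944 CPM against 3.93, 3.71 and 5.87 CPM. Every clone was well above the wild type at a low level, while the related Smad7 did not differ beyond its spread. The log2 fold change of Smad6 was 2.26 with a standard error of 0.46 and an interval from 1.11 to 3.40 (edgeR adjusted p = 0.22). Leaving out a clone gave an adjusted p of 0.0046 without 3D, where 3.17% of all genes passed, but 0.18 without 3C and 0.73 without 3M.

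Id4, the remaining Id gene, was counted 47 times in the wild type and 112, 75 and 165 times in the clones. Its clones ranked as those of Id2 did, with 3M highest and 3D lowest. Its log2 fold change was 1.71, with a standard error of 0.48 (edgeR adjusted p = 0.34). Leaving out a clone gave an adjusted p of 0.0017 without 3D, where 3.17% of all genes passed, but 0.33 without 3C and 0.84 without 3M. Id4 is on chromosome 13, whose median differences from the wild type were 0.48, 0.03 and 0.48 in the clones, beside 1.70, 1.03 and 2.06 for Id4 (log2 CPM). The part of the chromosome's shift in the Id4 result was not tested.

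The other genes of the list that differed by 1 or more on the log2 scale were counted rarely. Fst, a secreted inhibitor of activins and BMPs, had 16 counts in the wild type and 22, 54 and 44 in the clones, or a log2 fold change of 1.70 ± 0.58 (SE, edgeR adjusted p = 0.43), and is also on chromosome 13. Gata2, a transcription factor gene induced by BMP, had 68 counts and 69, 113 and 134, or a log2 fold change of 1.02 ± 0.35 (SE, edgeR adjusted p = 0.43). Bmpr1b, a type I BMP receptor gene, went the other way, with 17 counts in the wild type and 2, 5 and 4 in the clones and a log2 fold change of -1.79 ± 0.55 (SE, edgeR adjusted p = 0.39). The main BMP receptor gene of ES cells, Bmpr1a, was at 109 CPM in the wild type and at 150.1, 129 and 133 CPM in the clones. Its log2 fold change of 0.34 was close to the median of its chromosome, 14.

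**Figure D4:**
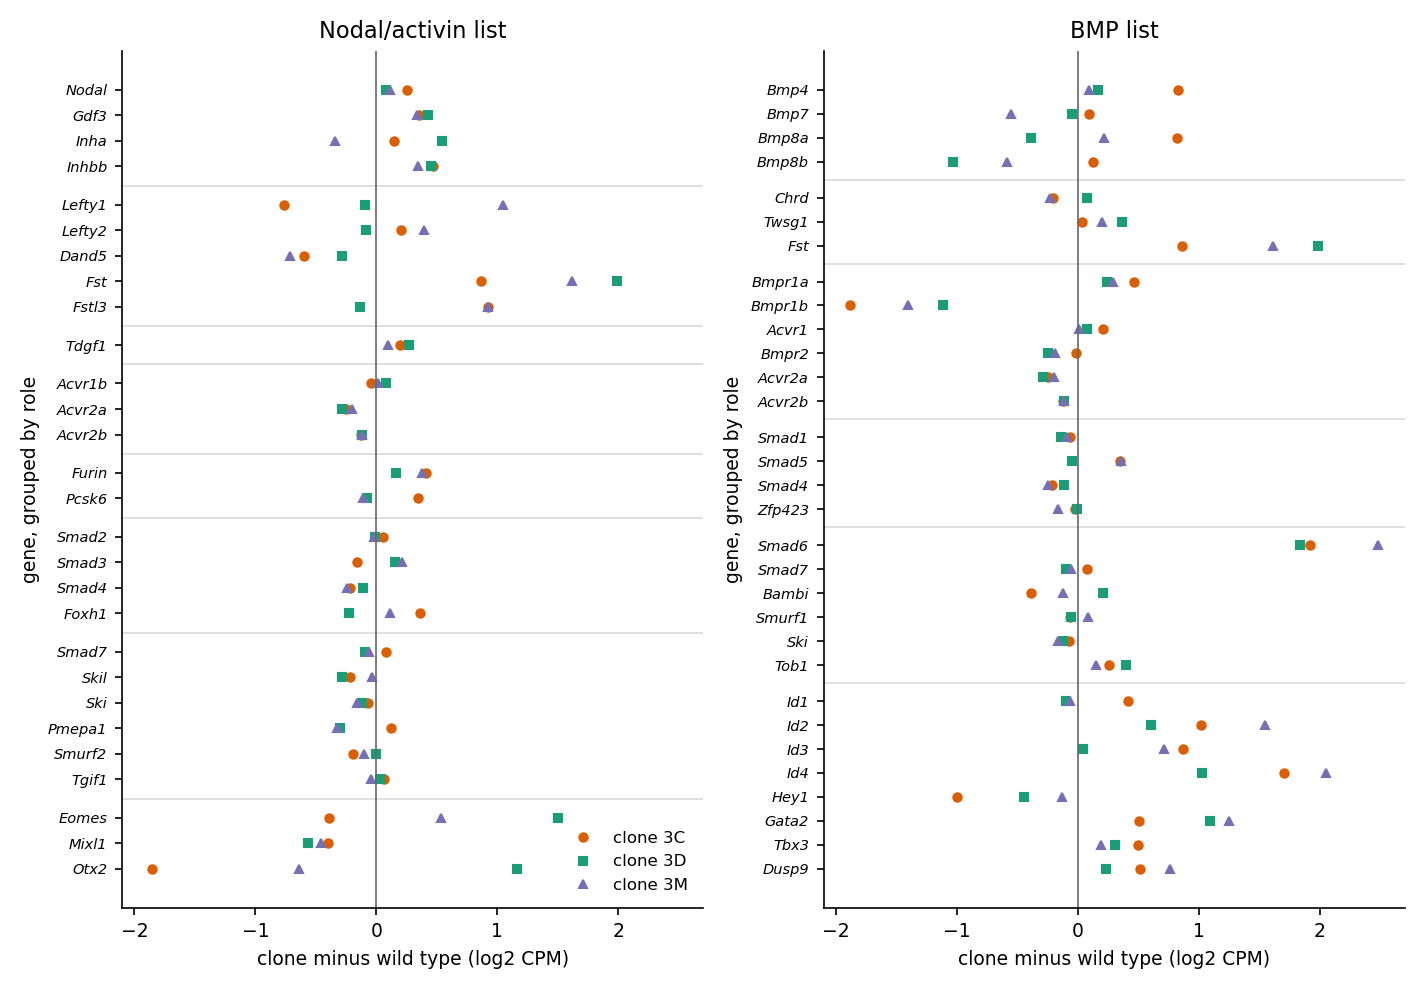
Differences in log2 CPM between each clone and the wild type for the tested genes of the Nodal/activin list (left) and the BMP list (right), grouped by role from ligands at the top to targets at the bottom, with grey lines between roles. Smad6, Id4, Id2, Fst and Gata2 lie right of 0 in all 3 clones, Bmpr1b lies left of it and Otx2 runs from clone 3C far left to clone 3D far right.

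Of the 7 genes listed for TGF-beta itself, 6 were tested and none was called, with a median log2 fold change of 0.01. Genes near Id2 and Id3 in pattern were ranked by the distance between their 3 clone-minus-wild-type differences in log2 CPM, over 4 libraries. Nearest to Id2 were 1700007K13Rik (distance 0.156), Masp2 (0.236) and C2 (0.242), and nearest to Id3 were Elfn1 (0.00868), Nedd4l (0.0662) and Phf2 (0.0835). No gene of the 9 was among them.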

How the data were processed

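RNA was extracted with Trizol, depleted of ribosomal RNA, made into directional libraries (NEBNext Ultra Directional kit) and sequenced as 50-base pairs. The authors mapped the reads to mm10 with STAR and deposited its counts of read pairs per gene, unnormalized, in 3 columns of strandedness. Which gene annotation was used with STAR was not stated. The reverse-strand column was taken, since the forward one held 1.26% to 1.31% of its total. Counts per sample, 13620914 to 18789457, set the counting error only. Any 2 libraries differed by more than sampling noise (chi-square per gene of 7.42 or more). Genes held 45.1% to 52.7% of pairs, and the rows of unmapped, multimapping, unassigned and ambiguous pairs were left out.

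The 3 rescue clones were compared with the 1 wild-type library in edgeR 4.0.16 (filterByExpr, TMM, quasi-likelihood test, adjusted p of 0.01, prior count of 2 for log2 CPM), with standard errors and 95% intervals from the F statistic. Since every clone came from 1 knockout clone, p-values measure the spread between these clones. DESeq2 1.42.0, limma-voom 3.58.1, the unstranded column, other scalings and filters, and leaving out each clone were tried as alternatives, and the fit was tested on simulated data. Gene positions and promoters were taken from RefSeq on GRCm38.p6, and exon lengths, strands, overlapping genes and transcripts from GENCODE. Beyond the 9 genes, those of the pathway lists with a log2 fold change of 1 or more in size, or sharing a role with a member, were open to naming. Bmpr1a was chosen after its values were seen. The members and lists were chosen with earlier results of these data known.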

Additional observations from a re-analysis of the deposited data

Results flagged for a closer look

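Morc3 had 7 counts on the strand opposite to the gene in the wild type, and 1963, 2001 and 2266 in the clones (3C, 3D and 3M), where the Morc3 transgene was present. These opposite-strand reads were 0.228% of all Morc3 reads in the wild type and 18.2%, 21.7% and 19.4% in the clones. No gene of the Nodal and BMP group had more than 34 reads on its opposite strand in any library.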

How the results depend on the processing

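Of 176 values recomputed under alternatives, 161 were classed as unchanged, 10 as moved, 2 as stronger and 3 as reversed. The 3 reversed values were log2 fold changes of the 9 genes. Some values classed as unchanged also changed sign. Without clone 3C, Bmp4 relative to its chromosome went from 0.0463 to -0.216, and the TGF-beta list median from 0.0063 to -0.0021. The number of genes called, 1, was 0 with 10 counts required in every library, with limma-voom and with edgeR's legacy fit, 65 with DESeq2, and 0 to 420 on leaving out a clone, the highest without clone 3D. The number of the 9 genes called, 0, went from 0 to 2 on leaving out a clone, with Id2 and Id3 called without clone 3D. Among log2 fold changes, leaving out a clone took Lefty1 from -0.389 (without 3M) to 0.592, Smad7 from -0.0770 to 0.0107 (without 3D) and Id1 from -0.0821 (without 3C) to 0.190. The median log2 fold change of the Nodal and activin list, 0.08, ran from 0.0154 to 0.0363 on leaving out a clone. That of the BMP list, 0.10, ran from 0.0145 to 0.143 and was -0.0450 without a filter on low counts, where more genes entered the median. Causes of the other changes were not tested. No paired analysis was possible because the only wild-type library has no counterpart for each clone. Smad6 and Id2 had 18 and 120 counts in the wild type, and 1 wild-type library leaves the spread of the wild type unmeasured.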

Other observations

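Among the ES cell markers, Nanog, a core pluripotency factor, was at 299.7 CPM in the wild type and at 468, 358 and 481 CPM in clones 3C, 3D and 3M. All clones were above the wild type, and the log2 fold change of 0.54 did not pass the test (edgeR adjusted p = 0.40). Esrrb was also above the wild type in every clone, by less (633 CPM against 649, 697 and 634 CPM, log2 fold change 0.06). The list as a whole did not share this pattern. Of the 8 markers, 5 had a negative log2 fold change, and the median was -0.02. Pou5f1 was below the wild type in every clone (766 CPM against 698, 756 and 720.3 CPM). Dnmt3b, a DNA methyltransferase gene of primed cells, was at 232 CPM in the wild type and at 196, 139.9 and 180.3 CPM in the clones, below it in each, with a log2 fold change of -0.43 (edgeR adjusted p = 0.49). Summed over 6 genes, markers of formative and primed cells came to 273 CPM in the wild type and 187 to 233 CPM in the clones, most of it Dnmt3b. Of the 5 tested, 3 had a positive log2 fold change, and the median was 0.03. The 3 were Sox4, on chromosome 13, and Otx2 and Sall2, on chromosome 14. Pou3f1 was below the wild type in every clone (10.0 CPM against 6.68, 7.01 and 6.07 CPM). Its log2 fold change was -0.61 (edgeR adjusted p = 0.36). Over 6 genes, markers of primitive streak and mesoderm came to 5.61 CPM in the wild type and 4.08 to 9.96 CPM in the clones. Their part in the Nodal and BMP results was not tested.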
